A study of Bos taurus with 6 samples.

Results

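Caspases are proteases that cut proteins after aspartate residues, and the 8 genes described here encode caspases, the scaffold that activates one of them, and proteins that restrain or release them. They were taken by symbol: the initiator caspases CASP2, CASP8 and CASP9, the apoptosome scaffold APAF1, the executioner caspase CASP6, the inhibitors XIAP and BIRC2, and DIABLO, which antagonizes such inhibitors. All 8 were found among the 23475 genes of the expression table, and all 8 reached the mean of 0.5 FPKM over the 6 libraries that was required for testing, as did 12422 genes in total. FPKM counts fragments per kilobase of transcript, scaled to the mapped fragments of each library, so that levels of different genes can be compared per length.

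The RNA came from bovine (Bos taurus) preadipocytes isolated from the subcutaneous fat of premature calves and grown in high-glucose DMEM with fetal bovine serum. In 3 libraries the cells had received the bta-miR-484 agomir, a synthetic modified RNA that acts as the mature microRNA, and in 3 they had received the agomir negative control (agomir NC). All 6 were collected 48 h after transfection, and no untransfected cells were analysed here. The sources used here do not state which calf or culture each library came from, so p-values measure only the spread between these libraries, which may be technical. Where 3 values of a group are given, they are those of libraries 1, 2 and 3 in that order. The number of reads behind each FPKM value is unknown. Between 16207 and 16360 genes were above 0 in each library, and the summed FPKM ran from 365977 to 369489 in 5 libraries and reached 379361 in agomir NC library 3.

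The submitters labelled the cells as adipocytes. Genes of fibroblasts and preadipocytes were abundant: all 10 of that marker list passed the minimum, COL3A1 had the highest mean at 7623 FPKM, and PDGFRA lay between 161.9 and 172.1 FPKM. Markers of mature fat cells were low, and 5 of the 8 listed passed the minimum. ADIPOQ, which encodes adiponectin, was at most 0.197 FPKM, and LEP and CIDEC were listed at 0 in 4 of 6 libraries each. PPARG, the nuclear receptor that drives adipogenesis, was the most abundant of those 8 markers at a mean of 3.55 FPKM, and the list summed to 8.31, 8.80 and 8.52 FPKM with the agomir and 9.39, 8.08 and 8.22 FPKM with agomir NC. FABP4, a fatty acid carrier, was at 1.54 to 3.57 FPKM and PLIN1, a lipid droplet coat protein, at 0.974 to 1.56 FPKM over the 6 libraries. Of the mature adipocyte markers, ADIPOQ, LEP and CIDEC were thus at or near 0 and the others low but mostly detected, and the name preadipocyte, which the study uses side by side with adipocyte for these cells, is kept here. Markers of endothelium (PECAM1 at most 0.147 FPKM), leukocytes (PTPRC at most 0.119 FPKM, MS4A1 listed at 0) and epithelium (EPCAM at most 0.312 FPKM) were close to 0, and the most abundant genes of the endothelial and leukocyte lists were VWF and CD14 at means of 3.39 and 6.27 FPKM. ACTA2, the smooth muscle actin that cultured fibroblasts also express, had a mean of 206.6 FPKM, and of the pericyte markers CSPG4 was at 4.26 to 5.91 FPKM and RGS5 was listed at 0 in 5 of 6 libraries. At limma's unadjusted p under 0.05, PPARG was higher with the agomir (log2 fold change 0.23, SE 0.090), and FABP4 (-0.49, SE 0.17) and DCN (-0.12, SE 0.043) were lower. None of these 3 passed at an adjusted p, and their part in the values of the caspase genes was not tested. Of the 5 mature adipocyte markers tested, 1 was higher and 1 lower at the unadjusted threshold. Of the 10 fibroblast and preadipocyte markers, 0 were higher and 1 was lower. The endothelial, leukocyte, and smooth muscle and pericyte lists had 2 genes tested each, with 0 passing. Among all genes tested, 10.9% passed in either direction.

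Caspases are made as inactive precursors. In the intrinsic route, cytochrome c leaves the mitochondria and assembles with APAF1 into the apoptosome, which activates caspase 9, while death receptors at the cell surface activate caspase 8, and both routes converge on executioner caspases. XIAP binds and blocks caspases directly, and DIABLO, released from mitochondria with cytochrome c, displaces it. Most of this control acts on proteins, and transcript levels do not measure caspase activity.

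The members spanned a wide range of levels. By the mean FPKM over all 6 libraries, CASP8 (23.1) and DIABLO (22.0) were highest, followed by XIAP (12.1), BIRC2 (11.6), CASP6 (9.71), CASP2 (9.06), CASP9 (4.56) and APAF1 (2.14). CASP8 and DIABLO overlapped over the libraries, as did XIAP and BIRC2, BIRC2 and CASP6, and CASP6 and CASP2, so the ranges of those neighbours in the order were not separate. Within libraries, BIRC2 was above CASP6 in 6 of 6, CASP8 above DIABLO in 5 of 6, and XIAP above BIRC2 and CASP6 above CASP2 in 4 of 6 each. DIABLO was above XIAP, CASP2 above CASP9, and CASP9 above APAF1 with no overlap between libraries. The members that belong to the apoptosome, CASP9 and APAF1, were thus the least abundant members as transcripts. CASP9 was at the percentile 33.4 of the mean levels of all genes tested and APAF1 at 18.4, against 78.8 for CASP8.

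**Figure D1:**
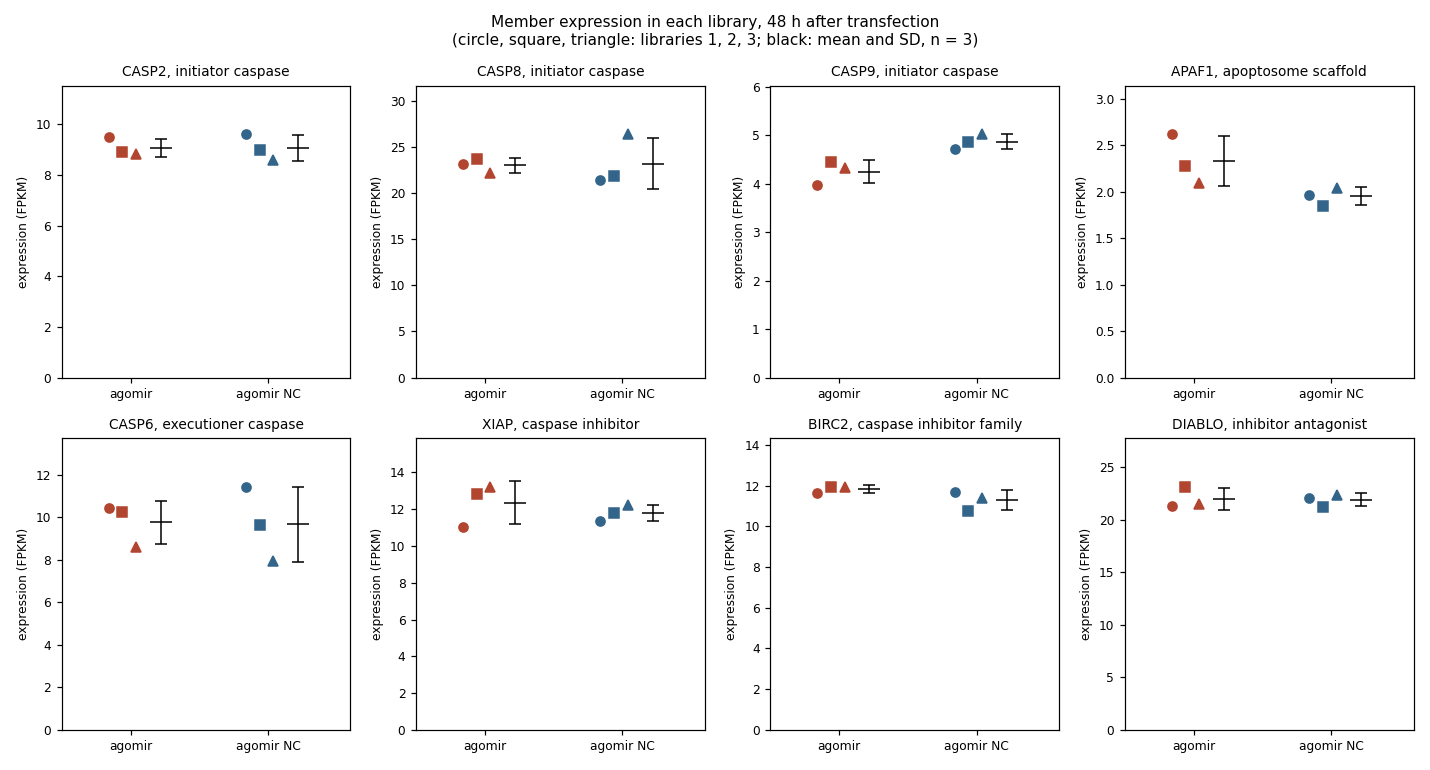
Expression of the 8 members in FPKM (vertical axis, from 0) in the agomir (red) and agomir NC (blue) libraries, with a symbol for each library number and the mean and SD of each group (n = 3) in black. CASP9 lay at 3.98 to 4.45 FPKM with the agomir and at 4.72 to 5.02 FPKM with agomir NC, APAF1 at 2.10 to 2.62 and 1.85 to 2.04 FPKM, and the groups overlapped for the other 6 members.

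The comparison asks whether the bta-miR-484 agomir altered the transcripts of the caspase machinery. None of the 8 members passed in limma, either at an adjusted p under 0.05 (0 of 8, against 1 gene or 0.00805% of all genes tested) or at an unadjusted p under 0.05 (0 of 8, against 1359 genes or 10.9%, made up of 6.63% with a higher and 4.31% with a lower level after the agomir). With median-ratio scaling the split of the genes at an unadjusted p went from 60.6% higher to 47.4% higher. The gene that passed the adjusted threshold was TRAPPC4, a vesicle tethering subunit outside the caspase pathway, named after its values were seen (log2 fold change 0.61, SE 0.059, adjusted p = 0.0216). No gene passed that threshold in 5 of 14 alternatives, namely with no filter, with no variance trend, with the replicate block, without agomir library 1 and without agomir NC library 2. Groups did not overlap for 1 member that was higher with the agomir, APAF1, and 1 that was lower, CASP9, against 10.9% and 6.36% of all genes tested, so the count of members was near the background. The median log2 fold change, on the scale of log2(FPKM + 0.5), was 0.015 over the 8 members and 0.013 over all genes tested, and the members ran from -0.18 to 0.20 where all genes had their percentiles 5 and 95 at -0.22 and 0.23. This scale understates the fold change of genes with low FPKM, such as APAF1.

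CASP9, the initiator caspase of the apoptosome, had the smallest p of the members. Its level was 3.98, 4.45 and 4.32 FPKM in agomir libraries 1, 2 and 3, and 4.72, 4.86 and 5.02 FPKM in agomir NC libraries 1, 2 and 3. Every agomir library was below every agomir NC library, and the gap between the closest libraries of the groups was narrower than the range within the agomir group. Mean expression was 4.25 ± 0.245 FPKM after the agomir and 4.87 ± 0.151 FPKM after agomir NC (SD, n = 3 in both groups), or 0.873 times as high. limma estimated a log2 fold change of -0.18 (SE 0.081, 95% interval -0.36 to 0.0051). It gave an unadjusted p of 0.0555 and an adjusted p = 0.467, so the difference did not pass. The two-sided exact permutation test on FPKM gave p = 0.1, which is the lowest value a comparison of this size can reach. The unadjusted p came under 0.05 in 3 of 14 alternatives, namely both other scalings and the fit without the variance trend, while the adjusted p stayed between 0.435 and 0.654 in all 14. The unadjusted p in limma was highest, at 0.17, without agomir library 1, where the log2 fold change was -0.13. It was 0.13 without agomir NC library 3 and 0.101 without agomir NC library 2. In bulk RNA, fewer cells of a type and less RNA per cell cannot be told apart.

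APAF1, the scaffold that assembles around cytochrome c and recruits caspase 9, had the opposite sign. It was 2.62, 2.27 and 2.10 FPKM in the agomir libraries against 1.96, 1.85 and 2.04 FPKM in the agomir NC libraries. Agomir library 1 stood highest, and agomir library 3 was just above agomir NC library 3. Mean expression was 2.33 ± 0.267 FPKM after the agomir and 1.95 ± 0.0972 FPKM after agomir NC (SD, n = 3 in both groups), or 1.19 times as high. On the log2 scale the difference was 0.20 (SE 0.11, 95% interval -0.043 to 0.45, adjusted p = 0.54), with an unadjusted p of 0.0955 in limma and p = 0.1 in the exact permutation test. It depended in size on agomir library 1, without which it was 0.13. Without the variance trend the unadjusted p was 0.0414, the lowest of 14 alternatives, over which the adjusted p ran from 0.489 to 0.748.

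The transcripts of the apoptosome partners therefore lay on opposite sides, though neither difference passed. As a description, with the pair chosen after the values were seen and no test, the ratio of APAF1 to CASP9 in FPKM was 0.659, 0.511 and 0.485 in agomir libraries 1, 2 and 3, and 0.416, 0.381 and 0.407 in agomir NC libraries 1, 2 and 3. Because APAF1 was higher and CASP9 lower in every agomir library, this ratio had to separate the groups. CASP9 was more abundant than APAF1 in all 6 libraries. CYCS, which encodes cytochrome c, was 24.8, 26.9 and 25.6 FPKM in the agomir libraries against 23.2, 16.3 and 26.5 FPKM in the agomir NC libraries. Its groups overlapped, with agomir NC library 2 far below the other 5 libraries (log2 fold change 0.25, adjusted p = 0.564).

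CASP8, the initiator caspase of death receptors, was 23.1, 23.7 and 22.1 FPKM in the agomir libraries against 21.4, 21.9 and 26.4 FPKM in the agomir NC libraries. The high value of agomir NC library 3 set the spread, and the agomir group lay inside the range of the other group. Mean expression was 23.0 ± 0.797 FPKM after the agomir and 23.2 ± 2.76 FPKM after agomir NC (SD, n = 3 in both groups). The log2 fold change was -0.0072 (SE 0.079, 95% interval -0.18 to 0.17, adjusted p = 0.986). Without agomir NC library 3 its sign turned, to 0.087, and the groups no longer overlapped, and without agomir library 3 it was 0.019. Groups of fewer libraries separate more easily, so nothing is read from that loss of overlap. CFLAR, a catalytically inactive relative that competes with caspase 8 at the death receptor complex, had its lowest value in the library where CASP8 was highest, 8.01 FPKM against 10.1 to 11.9 FPKM in the other 5 (log2 fold change 0.16, adjusted p = 0.659).

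CASP2, an initiator caspase that the PIDD1 and CRADD platform activates, was 9.49, 8.89 and 8.81 FPKM in the agomir libraries against 9.60, 8.98 and 8.57 FPKM in the agomir NC libraries. The groups covered nearly the same range. limma estimated a log2 fold change of 0.0027 (SE 0.070, 95% interval -0.15 to 0.16, adjusted p = 0.992), with its sign turned under both other scalings, and the interval allows folds from 0.899 to 1.12. The sign also turned without agomir library 1 (-0.029), agomir NC library 2 (-0.0021) or agomir NC library 3 (-0.034). Of its platform, PIDD1 was lower in every agomir library, at 1.36 to 1.44 FPKM against 1.51 to 1.61 FPKM, without passing (adjusted p = 0.768), and CRADD was at 0.997 to 1.31 FPKM against 0.841 to 1.01 FPKM, with overlap.

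CASP6, an executioner caspase that cuts lamin A, had the largest coefficient of variation of the members among the agomir NC libraries. It was 10.5, 10.2 and 8.60 FPKM in the agomir libraries against 11.4, 9.61 and 7.92 FPKM in the agomir NC libraries. The highest and the lowest value both belonged to agomir NC, with the agomir libraries between them. The coefficient of variation was 10.4% with the agomir and 18.3% with agomir NC, and the log2 fold change was 0.025 (SE 0.12, 95% interval -0.25 to 0.30, adjusted p = 0.963). This was the widest interval of the 8 members and allows folds from 0.84 to 1.23. The sign turned without agomir library 1 (-0.024), agomir library 2 (-0.010) or agomir NC library 3 (-0.10).

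XIAP, which binds caspase 9 and executioner caspases, was 11.0, 12.9 and 13.2 FPKM in the agomir libraries against 11.4, 11.8 and 12.2 FPKM in the agomir NC libraries. Agomir library 1 was the lowest of all 6, and the other agomir libraries were the highest. Mean expression was 12.4 ± 1.19 FPKM after the agomir and 11.8 ± 0.438 FPKM after agomir NC (SD, n = 3 in both groups), and the log2 fold change was 0.060 (SE 0.077, 95% interval -0.11 to 0.23, adjusted p = 0.818). BIRC2, a ubiquitin ligase of the same family that acts in TNF receptor signalling, was 11.6, 12.0 and 11.9 FPKM in the agomir libraries against 11.7, 10.8 and 11.4 FPKM in the agomir NC libraries. The agomir libraries were close together, and agomir NC library 1 lay among them. Mean expression was 11.8 ± 0.187 FPKM after the agomir and 11.3 ± 0.477 FPKM after agomir NC (SD, n = 3 in both groups), and the log2 fold change was 0.066 (SE 0.060, 95% interval -0.069 to 0.20, adjusted p = 0.731). Leaving out 1 library moved the log2 fold change of XIAP between 0.011 (without agomir library 3) and 0.14 (without agomir library 1), and that of BIRC2 between 0.034 (without agomir NC library 2) and 0.091. Without agomir library 1 the groups of both inhibitors did not overlap, and without agomir NC library 1 those of BIRC2 did not. Groups of fewer libraries separate more easily, and the share over all genes was not computed, so nothing is read from this. In the RefSeq table (assembly ARS-UCD2.0), in which all 8 members matched by symbol, BIRC3 is the gene next to BIRC2. This paralog was far more abundant at means of 58.2 and 56.5 FPKM (SD 1.41 and 1.84, n = 3 each), with a log2 fold change of 0.042 (SE 0.045, adjusted p = 0.773). How reads shared by such relatives were assigned is not given in the sources used here.

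DIABLO, the mitochondrial antagonist of these inhibitors, was 21.3, 23.2 and 21.5 FPKM in the agomir libraries against 22.1, 21.2 and 22.4 FPKM in the agomir NC libraries. The groups were interleaved. On the log2 scale the difference was 0.0056 (SE 0.055, 95% interval -0.12 to 0.13, adjusted p = 0.983), with its sign turned under both other scalings and without agomir library 2 (-0.032) or agomir NC library 2 (-0.016). This was the narrowest interval of the members and allows folds from 0.922 to 1.09. The ratio of DIABLO to the sum of XIAP and BIRC2 in FPKM, a description chosen after the values were seen, was 0.941, 0.934 and 0.856 in agomir libraries 1, 2 and 3, and 0.957, 0.941 and 0.947 in agomir NC libraries 1, 2 and 3. The antagonist was thus just below its summed targets in every library, and lowest beside them in agomir library 3. The ratio of CASP9 to XIAP, chosen in the same way, was 0.361, 0.346 and 0.327 with the agomir and 0.415, 0.412 and 0.410 with agomir NC.

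No library stood apart over the whole set of members. Their summed level was 93.5, 97.6 and 92.7 FPKM in agomir libraries 1, 2 and 3, and 94.2, 90.9 and 96.0 FPKM in agomir NC libraries 1, 2 and 3. Agomir NC library 2 held the lowest value for 3 of the 8 members, and agomir libraries 2 and 3 held it for 0. Among 7810 other named genes whose mean reached 5 FPKM, those whose log2 values followed CASP9 most closely over the 6 libraries were ANTXR2 (Pearson r 0.996), CTNNB1 (r 0.994) and NFIL3 (r 0.992), given as a description over libraries of both groups. Of the 7810 genes, 92 had an r above 0.9. The highest r of so many genes over 6 libraries is large through selection, and no link to CASP9 was tested.

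The other genes of the pathway were read from 5 lists with 54 entries, of which 47 passed the minimum. In limma 0 of the 47 passed at an adjusted p, and 3 were higher and 2 lower at an unadjusted p under 0.05. That is 10.6% of the 47, beside 10.9% of all genes tested. Their median log2 fold change was 0.022, beside 0.013 over all genes tested. Groups did not overlap for 2 of the 47 that were higher and 5 that were lower with the agomir, where 10.9% and 6.36% of all genes tested did so, and nothing is read from these small counts.

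**Figure D2:**
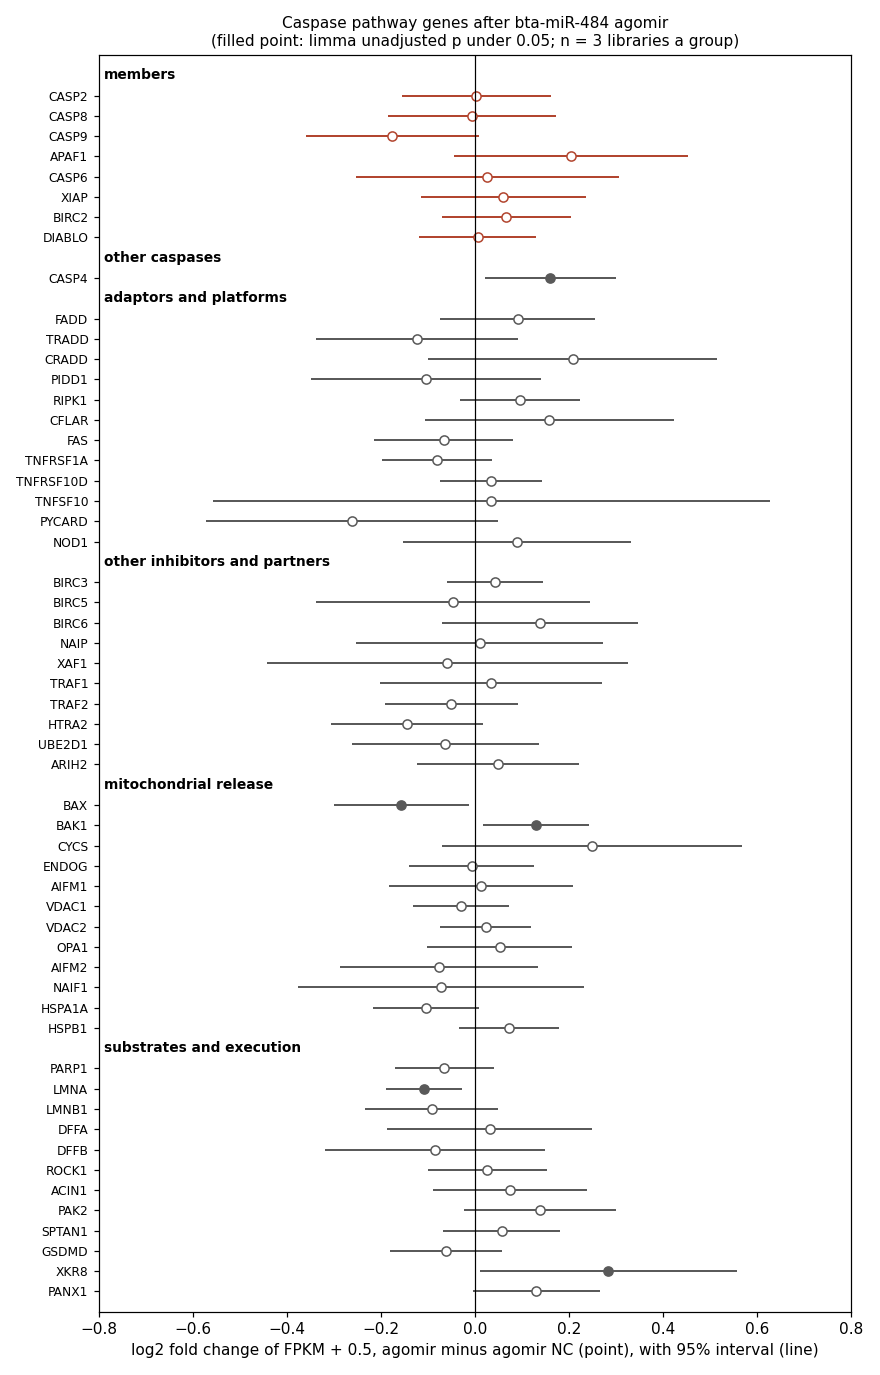
Log2 fold change of FPKM + 0.5, agomir minus agomir NC (horizontal axis), for the 8 members (red) and the 47 other pathway genes tested (grey), with 95% intervals from limma as lines and filled points where the unadjusted p was under 0.05. The 5 filled points are CASP4, BAX, BAK1, LMNA and XKR8, and the intervals of all 8 members include 0.

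Among the caspases outside the members, 1 of 5 listed symbols was tested, with 1 higher and 0 lower at an unadjusted p under 0.05. Of all genes tested 10.9% passed in either direction, and nothing is read from a count over 1 gene. CASP4, an inflammatory caspase, was more abundant than every caspase among the members. It was 92.4, 97.3 and 95.7 FPKM in the agomir libraries against 83.7, 78.7 and 93.4 FPKM in the agomir NC libraries. Agomir NC library 3 lay above agomir library 1, whereas the other agomir NC libraries were below every agomir library. The log2 fold change was 0.16 (SE 0.061, adjusted p = 0.399), with an unadjusted p of 0.0264 in limma that was under 0.05 in 9 of 14 alternatives. Leaving out agomir library 2 or 3 or agomir NC library 1 or 2 ended this, with unadjusted values of 0.0763, 0.0623, 0.0701 and 0.0978, as did the fit without the variance trend. The size was 0.10 without agomir NC library 2. The RefSeq table gives CASP13 as another symbol of CASP4, so that entry is the same gene. CASP10 had no match by symbol in the expression table, and CASP1 and CASP14 were listed at 0 in every library.

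The qPCR primers that the study used for CASP9 are shown because they define which transcripts that assay reads. Its values are not used here.
CASP9 forward: tggtggtcatcctgtctc
CASP9 reverse: catccatctgtgccataaac

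Of the 12 adaptors and platforms that bring initiator caspases together, all 12 were tested, and 0 were higher and 0 lower at an unadjusted p under 0.05 in limma, beside 10.9% of all genes tested in either direction. At an adjusted p 0 passed, and the median log2 fold change was 0.034. FADD, which links death receptors to caspase 8, was at 19.1 to 19.4 FPKM in the agomir libraries. Agomir NC libraries 1 and 3 were below them at 18.0 and 16.3 FPKM, but agomir NC library 2 was above them, so the groups overlapped. The most abundant gene of the list was the TNF receptor TNFRSF1A, at a mean of 76.7 FPKM.

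Of the other inhibitor of apoptosis genes and their partners, 10 of 12 were tested, and 0 were higher and 0 lower at an unadjusted p under 0.05 in limma, beside 10.9% of all genes tested in either direction. At an adjusted p 0 passed, and the median log2 fold change was -0.019. HTRA2, a mitochondrial protease that binds such inhibitors as DIABLO does, was lower in every agomir library, at 7.60 to 7.95 FPKM against 8.15 to 9.27 FPKM. It did not pass (log2 fold change -0.15, adjusted p = 0.5). BIRC7 was listed at 0, and SEPTIN4 appeared under its older symbol SEPT4 at 0.139 to 0.195 FPKM, under the minimum.

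Of the 12 genes of mitochondrial release, all 12 were tested, with 1 higher and 1 lower at an unadjusted p under 0.05, beside 10.9% of all genes tested in either direction, and a median log2 fold change of 0.0026. BAX and BAK1, which form the pores through which cytochrome c and DIABLO leave the mitochondria, had opposite signs. BAX was 48.3, 46.3 and 50.8 FPKM in the agomir libraries against 58.7, 53.6 and 50.2 FPKM in the agomir NC libraries. Agomir NC library 3 lay below agomir library 3, so the groups overlapped. On the log2 scale the difference was -0.16 (SE 0.063, adjusted p = 0.409), with an unadjusted p of 0.0323 in limma. It was under 0.05 in 9 of 14 alternatives and was lost without the variance trend or without agomir library 1 (0.0701) or 2 (0.111) or agomir NC library 1 (0.131) or 2 (0.0524), with the size at -0.098 without agomir NC library 1. BAK1 was 24.7, 23.7 and 24.2 FPKM in the agomir libraries against 21.5, 22.4 and 22.3 FPKM in the agomir NC libraries. Every agomir library was above every agomir NC library. The log2 fold change was 0.13 (SE 0.049, adjusted p = 0.398), with an unadjusted p of 0.0256 in limma that was under 0.05 in 10 of 14 alternatives and lost with the replicate block (0.057) and without agomir library 1 (0.0817), agomir library 3 (0.0648) or agomir NC library 1 (0.0767).

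Of the 13 genes of caspase substrates and execution, 12 were tested, with 1 higher and 1 lower at an unadjusted p under 0.05, beside the same 10.9% of all genes tested, and a median log2 fold change of 0.029. GSDME was under the minimum. LMNA, which encodes the lamin A that caspase 6 cuts, was 518.3, 530.9 and 518.2 FPKM in the agomir libraries against 570.6, 560.4 and 559.5 FPKM in the agomir NC libraries. The groups were apart, and each varied little (means 522.4 ± 7.28 and 563.5 ± 6.18 FPKM, SD, n = 3 each). limma estimated a log2 fold change of -0.11 (SE 0.035, adjusted p = 0.344), with an unadjusted p of 0.0119 that was under 0.05 in 11 of 14 alternatives. It was -0.053 with quantile normalization, with an unadjusted p of 0.211, and the unadjusted p was also over 0.05 without the variance trend (0.0689) and without agomir library 3 (0.0559). XKR8, a lipid scramblase that caspases switch on and that exposes phosphatidylserine on dying cells, was 1.91, 2.39 and 2.40 FPKM in the agomir libraries against 1.68, 1.61 and 1.95 FPKM in the agomir NC libraries. Agomir library 1 was just below agomir NC library 3. On the log2 scale the difference was 0.28 (SE 0.12, adjusted p = 0.44), with an unadjusted p of 0.0424 in limma that was under 0.05 in 8 of 14 alternatives. It was lost without agomir library 2 (0.121) or 3 (0.128) and without agomir NC library 1 (0.0966) or 2 (0.12), and was 0.0568 with no filter and 0.05 with quantile normalization.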

How the data were processed

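Total RNA of 6 libraries (3 agomir, 3 agomir NC) was sequenced at BioMarker Technology, and the authors deposited FPKM per gene and library. The submitters' processing notes name fastp, HISAT2, StringTie and the build ARS-UCD1.2, without versions. Low values showed no steps of whole reads, so depth is unknown. Genes whose mean reached 0.5 FPKM were tested on log2(FPKM + 0.5) with limma 3.58.1 in R 4.3.3 (variance trend, two-sided, no covariates, Benjamini-Hochberg adjustment over all 12422 genes), and mean FPKM with an exact permutation test over 20 labelings. The study names a web service for the differential screening and a two-group test for its data in general. Neither was used here for these FPKM values. The fit was tested on simulated data. Alternatives were pseudocounts of 0.1 and 1, no filter, a minimum of 1 FPKM, scaling by median ratios, quantile normalization, a fit with no variance trend, a replicate block and leaving out each library. Named genes were all 8 members, listed genes at an unadjusted p under 0.05, BAX, and the 3 genes most correlated with the member of smallest p. Some listed genes are not reported here. Other genes are given as examples chosen after their values were seen. The members and lists were chosen with earlier results of these data known. Positions are not given, since the RefSeq table holds another assembly (ARS-UCD2.0).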

Additional observations from a re-analysis of the deposited data

How the results depend on the processing

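Single-gene log2 fold changes were recomputed for 13 genes under 14 alternatives: 168 of 182 values kept their sign and their side of the adjusted threshold, and 14 turned sign. Both filter settings, the fit without the variance trend and the replicate block leave the log2 fold change as it was, so those values could not turn. None of the 13 genes passed the adjusted threshold in any fit, and the lowest adjusted p in limma was 0.274, for LMNA. CASP2 was -0.014 with median-ratio scaling and -0.024 with quantile normalization, and DIABLO was -0.011 with each. Leaving out each library in turn gave -0.034 to 0.044 for CASP2, -0.032 to 0.028 for DIABLO, -0.10 to 0.15 for CASP6 and -0.062 to 0.087 for CASP8. The cause was not tested. Genes at an adjusted p under 0.05 numbered 1, and 0 in limma with no filter (1604 at an unadjusted p), with no variance trend (1249) and with the replicate block (1260), and 0 to 2 without each library in turn, with 0 without agomir library 1 (1220) or agomir NC library 2 (1189) and 2 without agomir NC library 3. Members at an unadjusted p numbered 0, but 1 (CASP9) with median-ratio scaling, 1 (CASP9) with quantile normalization and 2 (CASP9 and APAF1) with no variance trend, and 0 without each library. Members whose groups did not overlap numbered 2, and 2 to 4 without each library, with 4 without agomir library 1. A group with fewer libraries separates more easily. The share over all genes was not computed without each library, so nothing is read from those counts. Genes at an unadjusted p numbered 1006 to 1604 over the 14 alternatives. The sources used here do not say whether libraries with the same number share an animal or culture, and they were not treated as pairs: their deviations correlated at -0.051, 0.053 and 0.039. The replicate block called 0 members, as did the main fit, so that count does not bear on pairing. With 3 libraries a group, differences inside the intervals given are not excluded, and what depth limits is unknown.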
